A study of Caenorhabditis elegans with 2 samples.

Results

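The genes egg-5, spn-4 and puf-9 were examined in a map of the chromatin bound by NHR-12, a nuclear hormone receptor of the nematode Caenorhabditis elegans, made by immunoprecipitating the tagged receptor and sequencing the attached DNA (ChIP-seq). They are 3 of 46926 genes in the Ensembl WBcel235 annotation, and were chosen by a measured value: each had a peak near its start in these data. Their peaks are therefore described without a test. The data come from a single group of 2 biological replicates of whole embryos of mixed stages and pooled sex, from strain OP318 (unc-119(ed3) III; wgIs318), in which NHR-12 carries an enhanced green fluorescent protein tag. The antibody is given only as nhr-12, and whole embryos do not show which cells hold a region. What drives the transgene and how many copies it has are not given in the labels, and the labelled control was not analysed here.

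EGG-5 is a catalytically inactive phosphatase-like protein that works with its near-identical partner EGG-4 and with EGG-3 when the oocyte turns into an embryo, and it holds the kinase MBK-2 in check. SPN-4 is an RNA-binding protein of the early embryo that controls the translation of maternal messages such as glp-1 and skn-1. PUF-9 belongs to the Pumilio and FBF (PUF) family, which represses messages through their untranslated regions, and it is known from larval development, where it acts on hbl-1 together with the let-7 microRNA pathway. RNA was not measured, so these data show where the tagged receptor was enriched and not whether a gene was expressed.

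All members carry a peak, described below, and the window of egg-5, the strongest of them, is not printed. The peak windows of spn-4 and puf-9 are shown. Each spans 100 bases on both sides of the summit on ce11, read from the RefSeq copy of WBcel235 on the strand of the gene (chrV:6785199-6785399, minus strand, for spn-4 and chrX:5841240-5841440, plus strand, for puf-9). Capitals mark matches to the motifs searched, which are CTGCGT and a run of 8 T on the opposite strand.
spn-4: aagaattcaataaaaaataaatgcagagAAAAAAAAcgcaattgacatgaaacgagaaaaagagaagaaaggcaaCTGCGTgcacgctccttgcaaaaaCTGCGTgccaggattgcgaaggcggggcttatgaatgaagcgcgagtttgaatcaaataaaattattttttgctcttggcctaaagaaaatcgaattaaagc
puf-9: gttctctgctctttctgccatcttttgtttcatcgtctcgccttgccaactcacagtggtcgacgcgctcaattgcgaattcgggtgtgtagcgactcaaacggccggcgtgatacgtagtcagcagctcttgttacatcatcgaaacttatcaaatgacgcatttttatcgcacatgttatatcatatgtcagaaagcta

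In the spn-4 window 1 copy of CTGCGT spans the summit and the other begins 20 bp to the side of the neighbouring gene spe-39. CTGCGT was added after the windows were seen. It occurred in 22.1% of the 249 thresholded peak windows of the same length, and in 5.90% of those of the other pooled candidates, 28282 regions without a thresholded peak on them. The longer promoter element CTGCGTCT, which contains it, matched in none of the 3 windows, in 12.9% of peaks and in 2.30% of candidates. The puf-9 window held none of the 11 motifs searched on both strands. Of those without a match in any of the 3 windows, GAGAGAG occurred in 20.1% of peaks and 4.81% of candidates, and GGGCGG in 18.5% of peaks and 4.30% of candidates. The shares were 5.22 and 4.32% for the E-box CACGTG, 6.02 and 11.4% for the GATA-type motif TTATCT, 2.41 and 1.04% for the E2F-type motif TTTCCCGC, 10.8 and 17.8% for the TATA-box motif TATAAA, and 12.4 and 32.5% for TTTCAG, the splice acceptor sequence. The egg-5 window held a single match, AGGTCA, a half-site known for nuclear receptors, which occurred in 5.22% of peaks and 5.70% of candidates. This match lies across the pooled summit, inside the small RNA gene sls-2.4, and the replicate 1 summit lay 105 bp from the pooled one. The run of T in the spn-4 window occurred in 9.64% of peaks and 16.6% of candidates. A match is a description of the letters only. GC content was 42.8% at egg-5, 37.8% at spn-4 and 45.8% at puf-9, against a median of 46.8% over all 249 peak windows (quartiles 42.8 and 50.7%).

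Each region carries a signal, the authors' value for its enrichment over the control, whose scale is not stated. It is used to rank and describe regions within a list, and values from different lists are set side by side without comparing their size. The weakest of the 249 thresholded peaks had a signal of 30.7, the median peak 39.2 and the strongest 113, while the best pooled candidate outside them had 30.6. The egg-5 peak ranked 42 of 249, that of spn-4 ranked 157 and that of puf-9 ranked 173, so egg-5 lay above the median of the peaks and the other members below it. A gene was given every peak whose summit fell in its start window, 1000 bp before the start and 200 bp after it. By that rule 373 of the 14976 genes with a pooled candidate in the window had a peak (2.49%), and 189 of 7138 protein-coding genes (2.65%). All 3 members had one, as their choice requires, and nothing is read from that count. The lists hold no read counts, and the depth behind a signal is unknown.

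**Figure D1:**
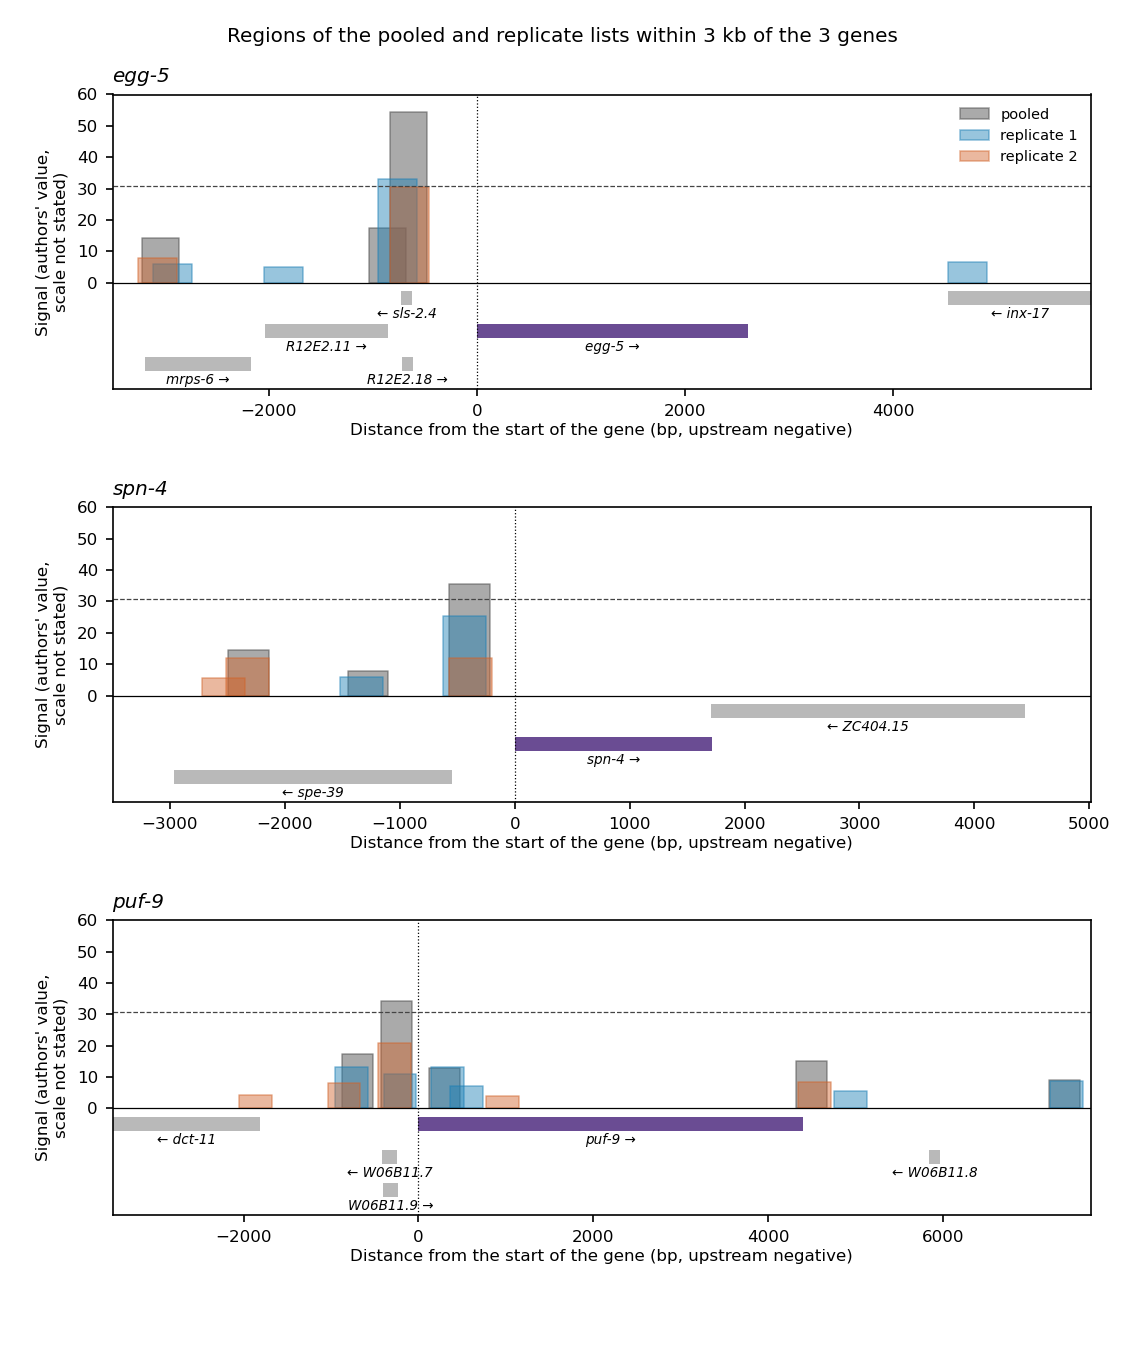
Regions of the pooled list (grey), replicate 1 (blue) and replicate 2 (orange) that reach within 3 kb of each gene body, drawn at their signal (y axis, the authors' value on a scale not stated) against the distance in bp from the gene start (x axis, upstream negative). Heights are not compared between lists, and the dashed line, the lowest thresholded signal of 30.7, applies to the pooled list. Purple bars are the 3 genes, grey bars their neighbours, and the arrows give each gene's direction relative to the gene of that panel.

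The egg-5 peak lay upstream of the gene, at a small RNA gene. The gene (WBGene00020035, chromosome I, 4168984 to 4171589, minus strand) has a single annotated transcript, and the peak spanned 4172066 to 4172421 with a pooled signal of 54.3. Its signal was 32.9 in replicate 1, rank 43 of 30000, and 30.6 in replicate 2, rank 25. It was the sole peak of the 3 members among the 249 best regions of both replicates, a place that 100 of the 249 peaks held (40.2%).

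The summit lay 655 bp upstream of the egg-5 start and 38 bp inside sls-2.4, which encodes a spliced leader 2 RNA, the short RNA that is trans-spliced onto messages of downstream genes in operons. It was also 62 bp inside R12E2.18, an ncRNA gene annotated on the opposite strand of the same stretch. The starts of egg-5, sls-2.4 and R12E2.18 all had the summit in their window, and egg-5 was the nearest protein-coding start. R12E2.11, the next coding gene upstream, starts 1380 bp from the summit, with the summit beyond its far end. Of 18 sls-2 genes in the annotation 13 had a pooled candidate in the window and 4 had a thresholded peak, at sls-2.1, sls-2.2, sls-2.4 and sls-2.8, beside 2.49% of all genes with a candidate. The peak at sls-2.4 is the egg-5 peak itself, chosen by the rule. The 13 genes do not each have a candidate of their own: sls-2.14 and sls-2.15 shared the candidate of rank 379, and sls-2.5 and sls-2.16 that of rank 2058.

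The replicates placed the egg-5 summit differently. In replicate 2 it lay 650 bp upstream of egg-5, inside sls-2.4, and in replicate 1 it lay 760 bp upstream, outside any annotated gene. These summits were 110 bp apart, against a median of 35 bp over the 248 peaks with a region in both replicates (quartiles 9.75 and 73.5 bp). A second pooled region, which overlaps the first, had its summit 854 bp upstream of egg-5, in the untranslated region at the far end of R12E2.11 (signal 17.3, rank 2083 of 28574). The third pooled region within reach lay 3043 bp upstream, in an intron of mrps-6, a mitochondrial ribosomal protein gene (signal 14.2, rank 4852). Its summit was 142 bp downstream of the mrps-6 start, inside the start window of that gene. Replicate 2 had a region there at rank 5795 and replicate 1 one at rank 19963. Replicate 1 also had weak regions in coding exons of R12E2.11 (rank 28449) and of the innexin gene inx-17 (rank 16285). Their summits lay 175 bp downstream of the R12E2.11 start, inside its start window, and 1798 bp downstream of the inx-17 start.

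Parts of the locus have near-identical copies elsewhere in the genome. Of the 327 words of 30 bases in the egg-5 peak, 303 (92.7%) occurred once in the genome on either strand, and within sls-2.4 59 of 81 (72.8%) did, with up to 4 copies. Inside the egg-5 gene body 26.8% of words were unique, and 26.7% inside its paralog egg-4. No region of any of the 4 lists overlapped the egg-5 gene body, and egg-4 had no pooled candidate within 3 kb. A replicate 2 region did overlap the egg-4 gene body, with its summit 59 bp upstream of the start (rank 28226). Within 3 kb of egg-4 the strongest region of replicate 2 ranked 13007, with its summit 4788 bp downstream of the start, in a coding exon of lrp-2. That of replicate 1 lay 1686 bp upstream at rank 1556. How the authors treated reads with several matches is not given in the sources used here, and its part in these values was not tested. The stretch of 1000 bp upstream of the gene was 97.5% unique for egg-5 and 100% for egg-4.

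**Figure D2:**
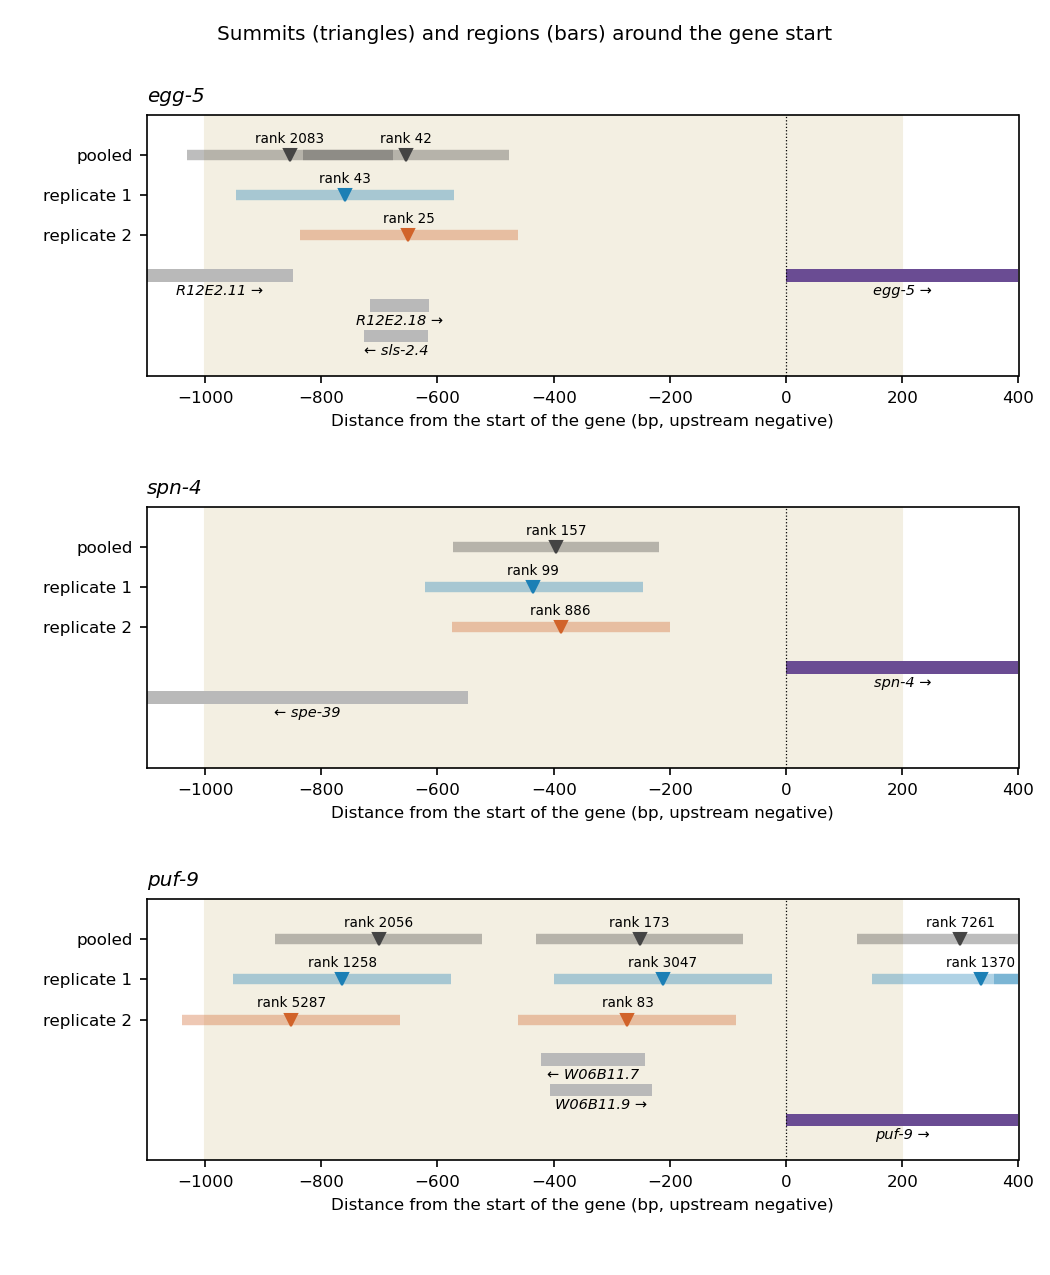
Regions (bars) and summits (triangles, with the rank by signal in their list) in the pooled and replicate lists around each gene start (x axis, distance in bp, upstream negative). The shaded band is the start window; the egg-5 summits of pooled rank 42 and of replicate 2 lie in sls-2.4 and that of replicate 1 outside it, the spn-4 summits lie between spn-4 and spe-39, and at puf-9 replicate 1 ranks the flanking regions above the peak.

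The spn-4 peak lay between a pair of genes that start head to head. The gene (WBGene00004984, chromosome V, 6783187 to 6784903, minus strand) and spe-39, which encodes a vesicle trafficking protein needed for sperm formation, start 548 bp apart. The peak spanned 6785121 to 6785476, outside annotated genes at its summit, with a pooled signal of 35.5. The summit lay 396 bp upstream of spn-4 and 152 bp upstream of spe-39, so spe-39 was the nearer start. Among all peaks, 55 of 249 had at least 2 protein-coding starts in the window. The peaks next to spn-4 in pooled rank lay 400 bp downstream of the start of col-85, a collagen gene (signal 35.499), where a start of another kind was nearer, and 71 bp upstream of sas-5, a centriole duplication gene (signal 35.45).

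The replicates ranked the spn-4 peak differently. In replicate 1 the signal was 25.5, rank 99, with the summit 435 bp upstream of spn-4, and in replicate 2 it was 12.1, rank 886, with the summit 388 bp upstream. The peak was thus among the 249 best regions of replicate 1 and not of replicate 2. Of the 249 peaks 39 had a worse rank in replicate 2 or no region there. The summits were 47 bp apart.

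Replicate 2 held a region of almost the same strength elsewhere in this locus. It lay 2328 bp upstream of spn-4, in a coding exon near the far end of spe-39, with a signal of 12.02 and rank 903, beside 12.07 and rank 886 for the peak itself. The pooled list had a region there (2316 bp upstream, signal 14.5, rank 4457), and replicate 1 had none. A second replicate 2 region overlapped it, with its summit 2534 bp upstream of spn-4, also in a coding exon of spe-39 (signal 5.53, rank 16139). For all of these summits the nearest start of any kind was that of another protein-coding gene, ZC404.2. They lay 721 and 515 bp upstream of it in replicate 2 and 733 bp upstream in the pooled list, inside its start window. A weak pooled region lay in an intron of spe-39 (1278 bp upstream, signal 7.93, rank 27436), with a replicate 1 region at rank 21921 and none in replicate 2. Within 3 kb of spn-4 the peak was therefore the sole pooled region, of 3, with a region in both replicates. No region of any list overlapped the spn-4 gene body. All 327 words of 30 bases in the peak were unique.

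The puf-9 peak lay close upstream of the gene, across 2 ncRNA genes on opposite strands. The gene (WBGene00004245, chromosome X, 5841592 to 5845987, plus strand) has 1 annotated transcript, and the peak spanned 5841162 to 5841517 with a pooled signal of 34.3. Its summit lay 252 bp upstream of puf-9, 10 bp inside W06B11.7 and 155 bp inside W06B11.9, and puf-9 was the nearest protein-coding start. All 327 words of 30 bases in the peak were unique.

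Of the 3 members puf-9 had the most unequal ranks. The peak had a signal of 21.0 and rank 83 in replicate 2, with the summit 273 bp upstream of the start, and a signal of 10.9 and rank 3047 in replicate 1, with the summit 212 bp upstream. Of the 249 peaks 5 had a worse rank in replicate 1. Replicate 1 ranked the regions on both sides higher. One lay 764 bp upstream (signal 13.3, rank 1258) and the other 335 bp downstream, in a coding exon of puf-9 (signal 13.03, rank 1370). In the pooled list these stood at 701 bp upstream (signal 17.4, rank 2056) and 300 bp downstream (signal 12.9, rank 7261). Replicate 2 had a region 852 bp upstream (signal 8.08, rank 5287) and 1 that lay 965 bp downstream at rank 28643.

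Replicate 1 had a further region inside puf-9, with its summit in an intron 546 bp downstream of the start (signal 6.97, rank 14214). More regions lay beyond the far end of puf-9. A pooled region 4496 bp from the start, past the end of the gene (signal 14.9, rank 3939), had a replicate 2 region at rank 4549 and, farther out and not overlapping it, a replicate 1 region at rank 23932. Another lay 121 bp upstream of atat-2, a tubulin acetyltransferase gene (signal 9.16, rank 20055), with a replicate 1 region at rank 7654. In the untranslated region at the start of dct-11, on the other side, replicate 2 had a region at rank 25279. In all, 5 pooled, 6 replicate 1 and 5 replicate 2 regions lay within 3 kb of puf-9, against 3, 4 and 2 for egg-5 and 3, 2 and 3 for spn-4. The stretches searched differ in length, since the gene body is 4396 bp at puf-9, 2606 bp at egg-5 and 1717 bp at spn-4.

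Set side by side, the worse replicate rank was 1.72 times the better at egg-5, 8.95 times at spn-4 and 36.7 times at puf-9. Over the 248 peaks with a region in both replicates the median was 3.06 (quartiles 1.79 and 10.1). Replicate 1 ranked spn-4 ahead of puf-9, and replicate 2 ranked puf-9 ahead of spn-4. The −log10 q value could not order them, since all 3 peaks held 2.61, the highest of the list, as did 203 of the 249 peaks.

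**Figure D3:**
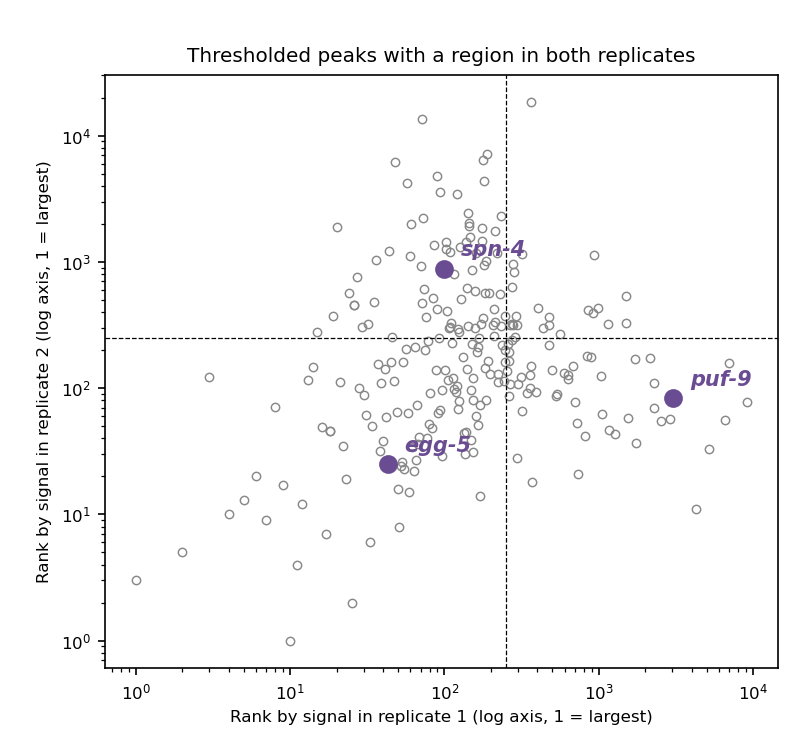
Rank by signal in replicate 1 (x axis, log scale) against rank in replicate 2 (y axis, log scale) for the 248 thresholded peaks with a region in both replicates; rank 1 is the largest signal. Purple points are the 3 genes, open circles the other peaks, and dashed lines mark rank 249; egg-5 lies inside both lines, spn-4 outside that of replicate 2 and puf-9 outside that of replicate 1.

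None of the 3 members was the nearest annotated start to its own peak, when starts of every kind were counted. A summit lay nearest to sls-2.4 at egg-5, to spe-39 at spn-4 and to W06B11.7 at puf-9. Of the 189 protein-coding genes with a peak in the window, 94 (49.7%) were the nearest start of any kind and 128 (67.7%) the nearest protein-coding start. Peaks with several starts in the window were common: 76 had 2 and 43 had 3 or more, against 76 with 1 and 54 with none. The peaks of egg-5 and puf-9 had 3 starts and that of spn-4 had 2.

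The peaks most like each member were found by the distance between log2 signals in the 2 replicates. For egg-5 they were a peak whose nearest start was the microRNA gene cel-mir-52 (signals 31.6 and 31.0 in replicates 1 and 2, distance 0.06) and 1 that lay 2573 bp downstream of the start of F22H10.2 (31.4 and 30.4, distance 0.07). For spn-4 they lay 5344 bp downstream of the start of sri-5 (24.4 and 12.3, distance 0.07) and 135 bp upstream of gtsf-1, a gene of small RNA pathways (24.7 and 11.3, distance 0.10). For puf-9 they lay 145 bp downstream of the start of ceh-38, a homeobox gene (11.7 and 20.0, distance 0.12), and at sls-2.8, near Y75B8A.23 (11.7 and 22.0, distance 0.12). The measure rests on 2 values per peak. In pooled rank the neighbours of egg-5 lay 2150 bp upstream of sup-26 (signal 54.28) and 1498 bp downstream of the start of C06G1.1 (54.1). Those of puf-9 lay 3385 bp downstream of the start of Y111B2A.12 (34.5) and 2338 bp downstream of that of K12G11.6 (34.2). These are the nearest protein-coding starts, and a gene of another kind started nearer at sup-26, C06G1.1 and K12G11.6.

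The other egg, PUF, maternal RNA and let-7 pathway genes were read for peaks in the same way. In 5 lists holding 65 genes, 30 had a pooled candidate in the start window and 5 had a peak, namely egg-5, spn-4, puf-9, ifet-1 and nhl-2. Over the whole annotation, 7138 of 19985 protein-coding genes had a candidate in the window, so the list counts of candidates below are description only. Leaving out the 3 members, which were chosen for their peaks, 2 of 27 genes with a candidate had a peak (7.41%, beside 2.65% of all protein-coding genes with a candidate). That count is too small to set the lists apart, and the 27 include the microRNA gene let-7. The lists were also chosen with earlier results of these data known, so the count may not be free of selection. The largest candidate signal per gene had a median of 11.3 over the 30 genes and 11.1 over all 7138 protein-coding genes with a candidate. The 30 genes include the 3 members, and over the list genes without a peak the median was 11.2.

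Of 15 genes for egg activation and the eggshell, 7 had a candidate and egg-5 alone had a peak. The strongest candidate of the list without a peak was at perm-2, a gene of the eggshell permeability barrier (signal 14.2, rank 4866). The chitin synthase gene chs-1 had one of 11.1 (rank 11845) and spe-11, which encodes a sperm-supplied protein needed for the eggshell, one of 7.81 (rank 28249). The other egg genes with a candidate were egg-1, which encodes an oocyte receptor-like protein needed for fertilization (signal 11.4, rank 11042), egg-6 (10.4, rank 14582) and egg-3 (7.96, rank 27291). Of 12 PUF family genes, puf-4 and puf-10 being pseudogenes in RefSeq, 3 had a candidate and puf-9 alone had a peak. Candidates lay 904 bp upstream of puf-3 (12.2, rank 8769) and 517 bp upstream of puf-11 (11.1, rank 12043). The germline stem cell regulators fbf-1 and fbf-2 had none in the pooled list.

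Among 17 maternal RNA regulators 8 had a candidate, and spn-4 and ifet-1 a peak. ifet-1 encodes a translational repressor that binds the cap-binding factor, and its peak (signal 44.2) lay 513 bp upstream, nearer to the ribosomal protein gene rps-1 (255 bp) and to F56F3.11 (6 bp). It ranked 1557 in replicate 1 and 58 in replicate 2. The strongest candidate without a peak in all 5 lists was at mex-1, an RNA-binding regulator of early embryonic cell fate (signal 21.4, rank 824), a gene named after its value was seen. Its summit lay 997 bp upstream, at the edge of the start window. In that window replicate 2 had a region at rank 451 and replicate 1 had none. Of 8 maternal messages under such control, among them glp-1 and skn-1, 5 had a candidate and none had a peak (signals 7.77 to 17.6).

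Among 13 let-7 pathway genes around puf-9, 7 had a candidate and nhl-2 a peak. nhl-2 encodes a protein that assists microRNA-induced silencing, and its peak (signal 47.1, 849 bp upstream) lay nearer to the coding gene tag-340 (574 bp) and 16 bp inside the ncRNA gene F26F4.14. It ranked 166 in replicate 1 and 51 in replicate 2, within the best 249 of both. hbl-1, the message that PUF-9 represses, had a candidate signal of 8.66 (rank 22882) and let-7 one of 8.85 (rank 21737).

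**Figure D4:**
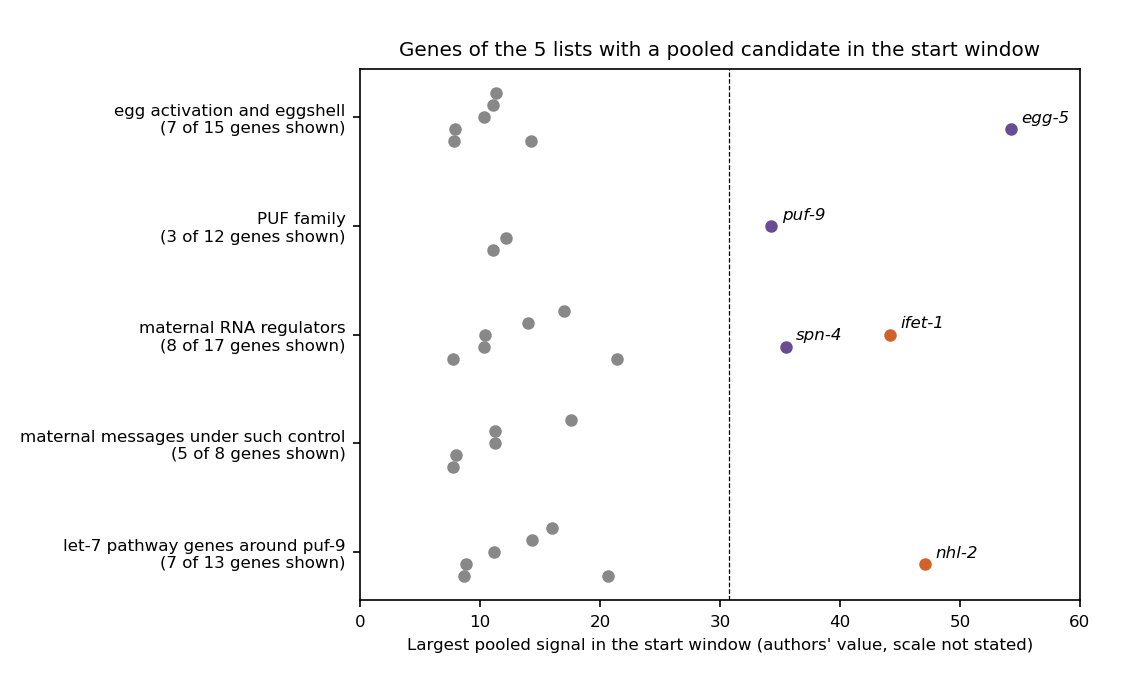
Largest pooled signal in the start window (x axis, the authors' value on a scale not stated) for each gene of the 5 lists (rows) with a pooled candidate there, spread vertically for legibility. Purple points are egg-5, spn-4 and puf-9, orange points the other genes with a thresholded peak, and grey points genes without one; the dashed line is the lowest thresholded signal, 30.7, and all grey points lie at or below 21.4.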

How the data were processed

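Regions from ChIP-seq of tagged NHR-12 in 2 replicates were deposited for the build ce11 as narrowPeak lists. Per the descriptions that accompany the deposited lists, candidates were called on each replicate, and on both pooled, against a control, and the thresholded list came from comparing candidates by the irreproducible discovery rate. The signal of each region (column 7) and its −log10 q value (column 9) are the authors' own. The ce10 lists were not used, and the caller, aligner and cutoff are not given in the sources used here. Here coordinates were made 1-based, summits were column 2 plus column 10, and regions overlapped from 1 bp. Gene starts came from Ensembl release 115 and sequence from RefSeq, both of WBcel235. All 65 list genes were matched, 59 by Ensembl name, 3 by a microRNA name and 3 by RefSeq symbol and coordinates. Named genes were the members, genes within 3000 bp or next beyond them, and list genes with a peak. Egg and PUF genes with a candidate were also named, as were genes at peaks most like each member or next in rank. The members and lists were chosen with earlier results of these data known. No test was run, since the rule used these values. Window code was tested on simulated data (Python 3.11.15, numpy 2.4.6, pandas 2.3.3, matplotlib 3.10.9). The replicates are labelled as biological, and what was grown or collected separately is not stated.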

Additional observations from a re-analysis of the deposited data

How the results depend on the processing

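Of 69 alternative values, 47 stayed within 1.5 times the count or within the spread of the replicates, and 22 moved. For ranks and distances the spread was the standard deviation of the replicate values, which were also among the alternatives. It widens as the replicates differ, so these numbers do not measure stability. A rank of 83 against 173 at puf-9 counted as unmoved, and 25 against 42 at egg-5 as moved. A reach of 5000 bp gave 5 pooled regions at egg-5, and a reach of 1000 bp gave 1 at spn-4. A start window of 500 bp upstream to 100 bp downstream lost egg-5 (0 genes for egg activation and eggshell), left 1 maternal RNA regulator and 0 let-7 pathway genes, and gave 2 genes over all lists, puf-9 and spn-4. One of 2000 bp upstream to 500 bp downstream gave 2 let-7 pathway genes. The 124 peaks with the highest signal kept 1 of the 3 members, egg-5, with 0 PUF genes, 1 maternal RNA regulator and 3 genes over all lists. Leaving out a replicate gave 0 to 1 PUF genes, 1 maternal RNA regulator either way, 1 to 2 let-7 pathway genes and 3 to 5 genes over all lists. With replicate 1 alone spn-4 and egg-5 were among the best 249 regions, and with replicate 2 alone puf-9 and egg-5. Ranks without a replicate ran from 25 to 43 at egg-5, 99 to 886 at spn-4 and 83 to 3047 at puf-9, and distances from -760 to -650 bp at egg-5 and from -435 to -388 bp at spn-4. The −log10 q value, tied over 203 peaks, gave egg-5 a mean rank of 102. The causes were not tested. No paired analysis was possible because there is 1 group. The unknown depth limits every signal value.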

Other observations

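ain-1, a let-7 pathway gene whose product is a core part of the microRNA silencing complex, counted as having no peak because of the edge of the start window. Its peak on chromosome X, 16612265 to 16612620, had its summit 1008 bp upstream of the gene, just outside the window of 1000 bp, and ain-1 was the nearest start of any kind. The pooled signal was 53.8, rank 46 of 249. The signal was 28.4 in replicate 1, rank 67, and 27.8 in replicate 2, rank 36, within the best 249 of both. The candidate inside the window was a weaker region 795 bp upstream (signal 20.6, rank 952). ain-1 was named after its values were seen.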
